A study of Homo sapiens with 16 samples.

Results

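Divergent transcripts are long noncoding RNAs (lncRNAs) that start close to the promoter of a protein-coding gene and run away from it on the opposite strand, and in GENCODE they carry the symbol of that neighbour followed by -DT. Downstream-of-gene transcripts (DoGs) form when RNA polymerase passes the annotated end of a gene and keeps transcribing, which hyperosmotic and other stresses are known to promote in mammalian cells. A DoG of a divergent lncRNA gene is thus readthrough from a noncoding gene, usually into sequence on the far side from its coding partner. Readthrough RNAs are among the transcripts that phenol-chloroform extraction tends to leave at the interphase between the aqueous and organic layers, and such RNAs are called semi-extractable.

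The DoGs of 31 divergent lncRNA genes were examined, of 3139 DoGs with an expression value in the deposited table. Membership required a GENCODE symbol ending in -DT, and HCCS-DT was set aside by the same rule. Among the DoGs of that table, no measured value entered the choice. The table itself holds DoGs detected by read coverage in these libraries, and every member had a listed region. GENCODE release 44 holds 590 such genes in all. The symbols and annotation used here are of release 44, whereas the authors detected DoGs with release 49.

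All libraries came from wild-type HEK293 cells, an immortalized human embryonic kidney line. Control cells were untreated, and stressed cells were kept for 9 h in 200 mM sorbitol, which raises the osmolarity of the medium, with 100 µg/mL cycloheximide, an inhibitor of translation, so that sorbitol and cycloheximide cannot be told apart. RNA of each condition was prepared by conventional acid phenol extraction, by the same extraction with added heating (hiAGPC), and as the 2 fractions of SERIPH, the 1st-step fraction being the ordinary aqueous phase and the 2nd-step fraction the RNA released from the washed and heated interphase. Each of the 8 groups had 2 biological replicates, 16 libraries of ribosomal RNA-depleted total RNA. Library input was 100 to 500 ng for the 1st-step and 5 to 50 ng for the 2nd-step fraction. The table holds values downstream of genes and none for gene bodies, so neither the identity of the cells nor the lncRNA transcripts themselves could be checked from it.

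All 31 genes were annotated as lncRNA, lay on 18 chromosomes, and had an annotated protein-coding partner on the opposite strand. The start sites of gene and partner were a median of 233 bp apart, and 27 of 31 pairs were within 1000 bp. CDKN2A-DT at 28372 bp and ITGB1-DT at 47355 bp were the farthest apart. Of the pairs more than 1000 bp apart, these 2 genes and TAF12-DT ran toward the partner's start site. The DoG of CDKN2A-DT began inside the partner gene, on the opposite strand. Among the closer pairs, MVP-DT, PTPN23-DT and SEPTIN7-DT overlapped the partner gene. Each of these started inside the partner and ran back across its start site. The genes were a median of 9.132 kb long (0.823 to 123.973 kb), with a median of 3 exons in the transcript with the most exons. The region over which the DoG value was computed had a median length of 25 kb, against 30 kb over all DoGs, and ranged from 10 to 500 kb. For 9 members a listed region ran over a named gene of the same strand, among them TAF12-DT, whose region covered EPB41, GMEB1, OPRD1 and YTHDF2, and NIPBL-DT, whose region reached SLC1A3-AS1. Reads of those genes could not be separated from the DoG. No member's start site lay inside the listed DoG of another gene in any library.

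The sequence around the beginning of the DoG region is shown for 6 of the members on which the results below turn, because the region begins where the authors' annotation ends the gene. Each line gives the last 40 bases before the region and its first 20 bases, 5′ to 3′ on the strand of the lncRNA, in GRCh38. Capitals mark the polyadenylation signals AATAAA or ATTAAA within the 40 bases before the region.
MVP-DT, chr16:29808616-29808675, minus strand: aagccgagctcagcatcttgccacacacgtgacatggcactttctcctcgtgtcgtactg
NIPBL-DT, chr5:36864405-36864464, minus strand: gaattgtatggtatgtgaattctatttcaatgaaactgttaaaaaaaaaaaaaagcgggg
NDUFA6-DT, chr22:42137703-42137762, plus strand: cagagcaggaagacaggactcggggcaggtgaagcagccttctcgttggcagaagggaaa
ZKSCAN2-DT, chr16:25355724-25355783, plus strand: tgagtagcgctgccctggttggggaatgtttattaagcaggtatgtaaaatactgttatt
ANKRD17-DT, chr4:73353569-73353628, plus strand: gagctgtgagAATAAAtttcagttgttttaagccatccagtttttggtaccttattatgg
UBL7-DT, chr15:74516920-74516979, plus strand: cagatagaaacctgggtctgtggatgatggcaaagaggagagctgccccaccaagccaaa

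A polyadenylation signal is the hexamer that directs cleavage of the transcript, usually a short way before its end. In the 50 bases before the region, read on the sense strand, AATAAA stood in 8 of 31 members (25.8%), among them ANKRD17-DT, CDKN2A-DT, ITGB1-DT, PTPN23-DT, RNF139-DT, SEPTIN7-DT and SOD1-DT, and ATTAAA in TMEM11-DT alone. Together the hexamers were present in 29% of members, 52.0% of 227 DoGs of other lncRNA genes and 67.2% of 2869 DoGs of protein-coding genes. These shares describe letters in a window and were not tested. For 12 members the region began 1 bp after the release 44 end of the gene, while for ZKSCAN2-DT it began 94698 bp past it and for UBL7-DT 2989 bp past it.

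Promoter sequences, 250 bases before to 50 bases after the start, were found for 22 of the 31 genes in the RefSeq table (GRCh38.p14). NIPBL-DT and LLPH-DT are shown, as a member whose DoG rose with stress and a member whose DoG fell. Capitals mark CCAAT and CCGGAA, the core of sites for ETS factors, on either strand. TATAAA was also searched and was in neither.
NIPBL-DT, chr5:36876645-36876944, minus strand: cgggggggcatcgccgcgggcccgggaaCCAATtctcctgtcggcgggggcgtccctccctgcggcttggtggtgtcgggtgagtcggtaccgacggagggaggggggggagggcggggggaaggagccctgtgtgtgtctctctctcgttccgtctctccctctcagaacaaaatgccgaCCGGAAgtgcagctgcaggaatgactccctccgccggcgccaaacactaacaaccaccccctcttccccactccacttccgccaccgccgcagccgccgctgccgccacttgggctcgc
LLPH-DT, chr12:66130501-66130800, plus strand: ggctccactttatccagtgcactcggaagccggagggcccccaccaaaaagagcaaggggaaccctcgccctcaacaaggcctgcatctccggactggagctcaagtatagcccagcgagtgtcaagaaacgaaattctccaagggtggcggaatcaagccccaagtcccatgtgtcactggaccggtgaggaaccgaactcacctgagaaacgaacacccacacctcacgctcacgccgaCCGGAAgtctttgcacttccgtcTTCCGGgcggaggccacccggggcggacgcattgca
The promoters were rich in CpG, as those of most divergent pairs are known to be. NIPBL-DT had 28 CpG and a GC content of 69%, and LLPH-DT had 20 CpG and 60%. The median over the 22 promoters was 27.5 CpG, against 14 over 27305 RefSeq promoters. CCGGAA was present in 9 of 22 (40.9%), against 17.6% of all promoters, CCAAT in 7 (31.8% against 35.7%) and TATAAA only in UBL7-DT (4.55% against 12%).

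The libraries in which a DoG region was listed were compared first. The authors' DoG detection required a region of at least 10 kb past the gene, and each library has its own list. Coverage need not be unbroken, since the paper chose settings that let a region extend across repeats with gaps in unique reads. In stressed cells 21 of 31 members were listed in both replicates of the SERIPH 2nd-step fraction (67.7%, against 64.1% of all DoGs) and 15 in both of hiAGPC (48.4%, against 44.4%). Under stress only MVP-DT and NIPBL-DT were listed in both conventional replicates (6.45%, against 9.73% of all DoGs), and only MVP-DT in both of the 1st-step fraction (3.23%, against 8.10%). MVP-DT lies beside the gene of the major vault protein, and NIPBL-DT beside the gene of the cohesin loader NIPBL.

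In control cells few members were listed. LLPH-DT was listed in both replicates of the conventional and of the hiAGPC preparation, and UBL7-DT, ZNF567-DT and ZNF8-DT in both of the 2nd-step fraction. None was listed in the 1st-step fraction. The shares of all DoGs listed in both replicates were 8.74% in conventional, 12.9% in hiAGPC, 6.92% in 1st-step and 18.2% in 2nd-step RNA. In all, 27 members (87.1%) were listed in no control library, against 74.1% of all 3135 DoG genes, and LLPH-DT, UBL7-DT and ZNF567-DT were listed in no stress library.

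The DoG levels are in FPKM, fragments scaled to the length of the region and to a library total that the sources used here do not define, computed by the authors over 1 region per gene in every library and rounded to 2 decimals. FPKM is relative to the other reads counted in a library, so more of a DoG and less of the other RNA in a fraction cannot be told apart, and a DoG that covers only the beginning of a long region has a low value. Over the 31 members the median ranged from 0.05 to 0.08 FPKM in the 8 control libraries, from 0.12 to 0.14 in the aqueous preparations (conventional and 1st-step) of stressed cells, from 0.54 to 0.56 in hiAGPC and from 0.82 to 0.92 in the 2nd-step fraction. The medians over all DoGs in the same libraries were 0.07 to 0.10, 0.14 to 0.16, 0.58, and 0.84 to 0.86.

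**Figure D1:**
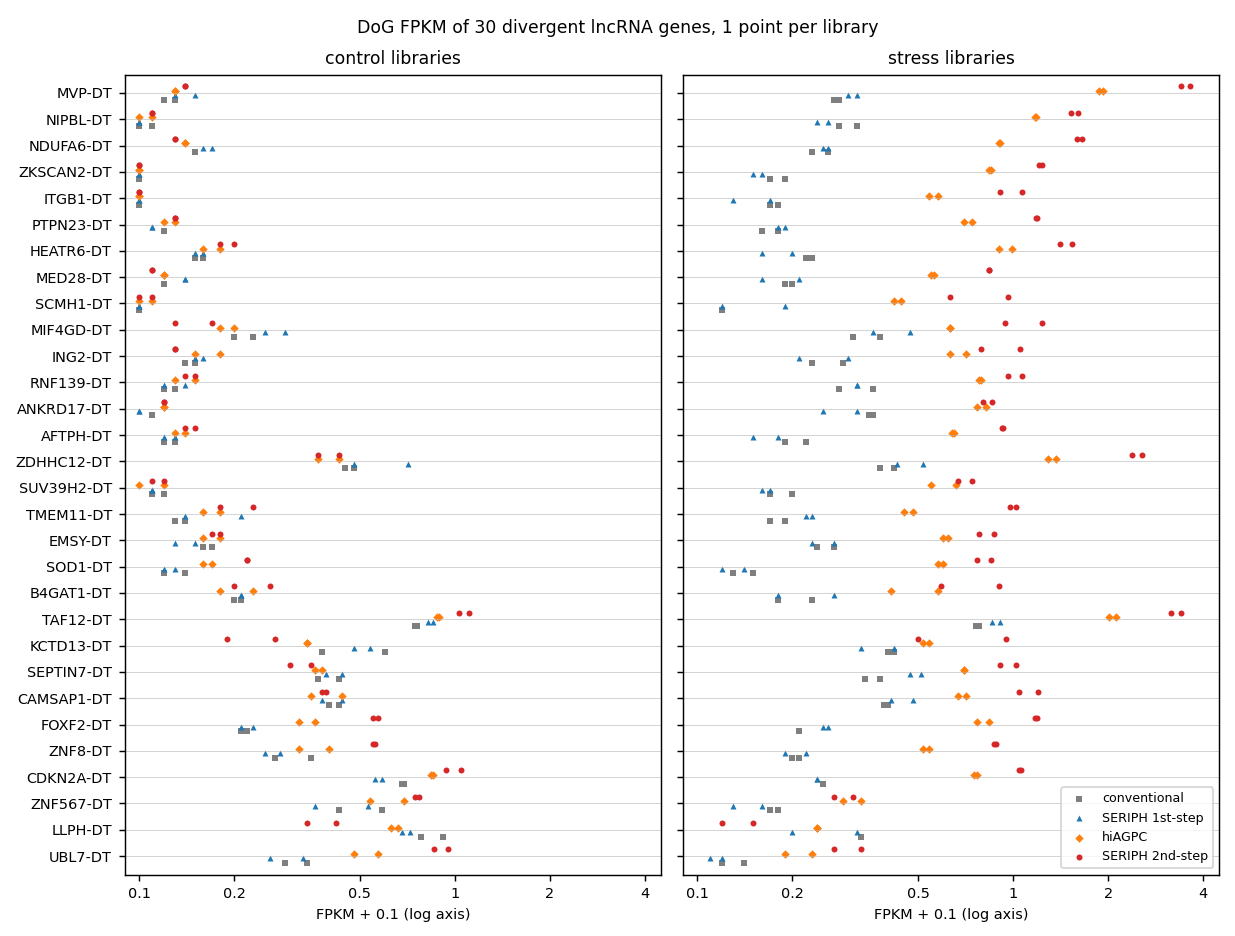
DoG level of 30 of the 31 genes, as FPKM plus 0.1 on a log axis, in the control libraries (left) and the stress libraries (right); each point is 1 library, colour and shape give the preparation, and genes are ordered by the stress effect in the 2nd-step fraction. Most genes sit near the lower limit in every control library and spread out by preparation under stress, while LLPH-DT, UBL7-DT and ZNF567-DT at the bottom move the other way.

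Differences were tested with limma on log2(FPKM + 0.1) in 1 fit of all libraries and all 3139 DoGs, with Benjamini-Hochberg adjustment over all of them. A DoG was called where the adjusted p was below 0.05 and the log2 difference at least 1. Fold changes are on that scale, which understates the change of low DoGs. The 4 comparisons of stress with control use separate libraries, whereas the preparation comparisons use the same libraries again.

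The stress response was first compared in the preparations that recover semi-extractable RNA. Each DoG is in the table because it was detected in some of these libraries. For 27 of the 31 members no control library listed it, against 74.1% of all DoG genes. Detection thus favoured a rise with stress, by an amount that was not tested, and the limma p-values do not allow for it. In the 2nd-step fraction 26 members rose with stress and 3 fell, where 74.6% and 11.7% of all DoGs did. In hiAGPC 23 rose and 2 fell, where 70.2% and 9.14% of all DoGs did. The median log2 change of the members was 2.63 in the 2nd-step fraction (all DoGs 2.38) and 1.85 in hiAGPC (all DoGs 1.86), and 17 and 15 of the 31 members were above the median of all DoGs. Because the table consists of DoGs and most of them rose, centring each library on its DoG median left 5 members higher and 6 lower in the 2nd-step fraction (18.5% and 28.2% of all DoGs), and 3 higher and 7 lower in hiAGPC (13.9% and 28.7%).

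MVP-DT rose most of the members in both. It had 0.04 and 0.04 FPKM in the 2 control 2nd-step libraries, and 3.52 and 3.31 under stress. The values in hiAGPC were 0.03 and 0.03 in control and 1.83 and 1.77 under stress. The groups were far apart in both preparations. These values were computed over 156.173 kb and include any reads over C16orf54, a gene of the same strand that its hiAGPC regions reached. The log2 change was 4.65 (SE 0.08, adjusted p = 1.03e-13, limma) in the 2nd-step fraction and 3.87 (SE 0.08, adjusted p = 7.25e-13) in hiAGPC.

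NIPBL-DT was next in both preparations. Its 2nd-step libraries held 0.01 and 0.01 FPKM in control and 1.42 and 1.51 under stress, a log2 change of 3.83 (SE 0.09, adjusted p = 4.06e-13, limma). The hiAGPC libraries held 0.00 and 0.01 in control and 1.07 and 1.08 under stress, a log2 change of 3.49 (SE 0.09, adjusted p = 1.69e-12). The stressed libraries were all above 1 FPKM and the control libraries at or next to 0. These values include any reads over SLC1A3-AS1, which lies in the 500 kb region on the same strand.

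NDUFA6-DT lies beside the gene of a subunit of mitochondrial complex I. It had 0.03 and 0.03 FPKM in control and 1.49 and 1.55 in stressed 2nd-step libraries, a log2 change of 3.64 (SE 0.07, adjusted p = 1.99e-13, limma), and a log2 change of 2.69 in hiAGPC (adjusted p = 3.14e-12).

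ZKSCAN2-DT, beside a zinc finger gene, was listed at 0 in all 8 control libraries. Under stress it had 0.74 and 0.75 FPKM in hiAGPC, and 1.11 and 1.13 in the 2nd-step fraction. The log2 changes of 3.08 and 3.61 (adjusted p = 1e-12 and 1.71e-13, limma) depend on the added 0.1 on the control side, which understates the change. ITGB1-DT, beside the gene of an integrin beta subunit, was likewise listed at 0 in every control library, and had 0.97 and 0.81 FPKM in the stressed 2nd-step libraries.

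Among the members that rose in the 2nd-step fraction, TAF12-DT had the highest control level there. CDKN2A-DT, which did not rise, had 0.95 and 0.84 FPKM in the same control libraries. TAF12 is a subunit of the general transcription factor TFIID. The values of TAF12-DT include any reads over EPB41, GMEB1, OPRD1 and YTHDF2, which its region covers. Its DoG had 0.93 and 1.01 FPKM in control 2nd-step libraries and 3.31 and 3.07 under stress. The log2 change was 1.62 (SE 0.07, adjusted p = 2.36e-10, limma), and in hiAGPC it was 1.22 (SE 0.07, adjusted p = 5.06e-09), but with libraries centred on the DoG median TAF12-DT was lower under stress in both, by log2 values of -0.63 and -0.70. It thus rose less than the typical DoG.

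Further members that rose in the 2nd-step fraction are given by their levels there. PTPN23-DT, beside a phosphatase gene, went from 0.03 FPKM in both control libraries to 1.09 and 1.08 under stress. SCMH1-DT, beside a Polycomb group gene, went from 0.00 and 0.01 to 0.86 and 0.53. These were nearly silent in control cells.

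Next to chromatin genes, ING2-DT went from 0.03 in both control libraries to 0.95 and 0.69 FPKM, and SUV39H2-DT, beside a histone methyltransferase gene, from 0.01 and 0.02 to 0.57 and 0.64. EMSY-DT went from 0.08 and 0.07 to 0.77 and 0.68. SOD1-DT, beside the gene of a superoxide dismutase, went from 0.12 in both to 0.75 and 0.67. MIF4GD-DT went from 0.03 and 0.07 to 1.13 and 0.84, AFTPH-DT from 0.05 and 0.04 to 0.83 and 0.82, and RNF139-DT from 0.05 and 0.04 to 0.86 and 0.97. In each of these the stressed libraries were far above the control libraries.

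A few DoGs had a higher control level in that fraction. CAMSAP1-DT, beside the gene of a microtubule minus-end binding protein, had 0.28 and 0.29 FPKM in control and 1.10 and 0.94 under stress, and SEPTIN7-DT, beside a septin gene, had 0.20 and 0.25 in control and 0.92 and 0.81 under stress. FOXF2-DT had 0.47 and 0.45 in control and 1.07 and 1.09 under stress. B4GAT1-DT had 0.10 and 0.16 in control, and 0.49 and 0.80 under stress, the replicates lying far apart. ZNF8-DT, with 0.46 and 0.45 in control and 0.77 and 0.78 under stress, did not reach the required change.

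In all, 3 members went down with stress in the 2nd-step fraction. UBL7-DT, beside the gene of a ubiquitin-like protein, had 0.76 and 0.85 FPKM in control and 0.23 and 0.17 under stress, and its log2 change was -1.60 (SE 0.16, adjusted p = 5.46e-07, limma). LLPH-DT had 0.32 and 0.24 in control and 0.05 and 0.02 under stress, a log2 change of -1.49 (SE 0.19, adjusted p = 6.71e-06). ZNF567-DT, beside another zinc finger gene, had 0.67 and 0.65 in control and 0.17 and 0.21 under stress, a log2 change of -1.39 (SE 0.20, adjusted p = 2.12e-05). For none of them did the control and stress libraries overlap, and each also went down with libraries centred on the median.

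UBL7-DT and LLPH-DT fell in hiAGPC as well. UBL7-DT had 0.47 and 0.38 FPKM in control and 0.13 and 0.09 under stress (log2 change -1.32, adjusted p = 3.9e-06, limma). LLPH-DT had 0.56 and 0.53 in control and 0.14 and 0.14 under stress (log2 change -1.43, adjusted p = 1.14e-05). ZNF567-DT had 0.59 and 0.44 in control and 0.19 and 0.23 under stress, without overlap, and did not reach the required log2 change of 1.

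The same contrast in the aqueous preparations gave smaller values. In the conventional preparation 4 members rose and 4 fell, where 22.2% and 11% of all DoGs did. In the 1st-step fraction the counts were 4 and 4 as well, where 21.4% and 10.6% of all DoGs did. The median log2 change of the members was 0.50 (all DoGs 0.44) and 0.39 (all DoGs 0.43). With an added value of 0.01 in place of 0.1 the conventional counts were 18 higher and 4 lower (49% and 15.2% of all DoGs), and with an added value of 1 no member was called in either preparation, where 0.892% and 0.956% of all DoGs were called higher. Centring left 1 higher and 5 lower in the conventional preparation (8.6% and 19.6% of all DoGs) and 1 higher and 4 lower in the 1st-step fraction (8.89% and 18.6%).

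ANKRD17-DT rose most in both aqueous preparations. The conventional libraries had 0.01 and 0.01 FPKM in control and 0.26 and 0.25 under stress, a log2 change of 1.69 (SE 0.10, adjusted p = 2.16e-08, limma). In the 1st-step fraction it was listed at 0 in control and had 0.15 and 0.22 under stress, a log2 change of 1.5 (SE 0.10, adjusted p = 5.88e-08). Its 2nd-step values, 0.02 and 0.02 in control and 0.76 and 0.70 under stress, were below the median of the members in stressed libraries.

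NIPBL-DT, RNF139-DT and MVP-DT were the other members called higher in both. NIPBL-DT changed by log2 values of 1.51 and 1.32 in the conventional and the 1st-step preparation. RNF139-DT, beside a ubiquitin ligase gene, changed by 1.35 and 1.30. MVP-DT changed by 1.14 and 1.15, from 0.03 and 0.02 to 0.18 and 0.17 FPKM in the conventional libraries. The largest adjusted p of these was 1.3e-06 (limma).

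The members that fell in the aqueous preparations were ZNF567-DT, LLPH-DT, UBL7-DT and CDKN2A-DT in both. ZNF567-DT changed by log2 values of -1.53 and -1.60, LLPH-DT by -1.36 and -1.47, and UBL7-DT by -1.28 and -1.35, with adjusted p values of at most 3.38e-05 (limma). In all 4 preparations the stressed libraries of ZNF567-DT, LLPH-DT and UBL7-DT lay below the control libraries.

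CDKN2A-DT, beside the gene of a cyclin-dependent kinase inhibitor, behaved differently by preparation. It had 0.58 and 0.59 FPKM in conventional control libraries and 0.15 and 0.15 under stress (log2 change -1.45, adjusted p = 6.77e-09, limma), and 0.46 and 0.49 in 1st-step control libraries and 0.14 and 0.14 under stress (log2 change -1.26, adjusted p = 2.41e-08). In hiAGPC it had 0.74 and 0.75 in control and 0.65 and 0.67 under stress. In the 2nd-step fraction it had 0.95 and 0.84 in control and 0.94 and 0.96 under stress, so that it dropped in what the aqueous phase held while its level in the released interphase overlapped between conditions. All of these values include reads over CDKN2B-AS1, which lies in the 160 kb region on the same strand.

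**Figure D2:**
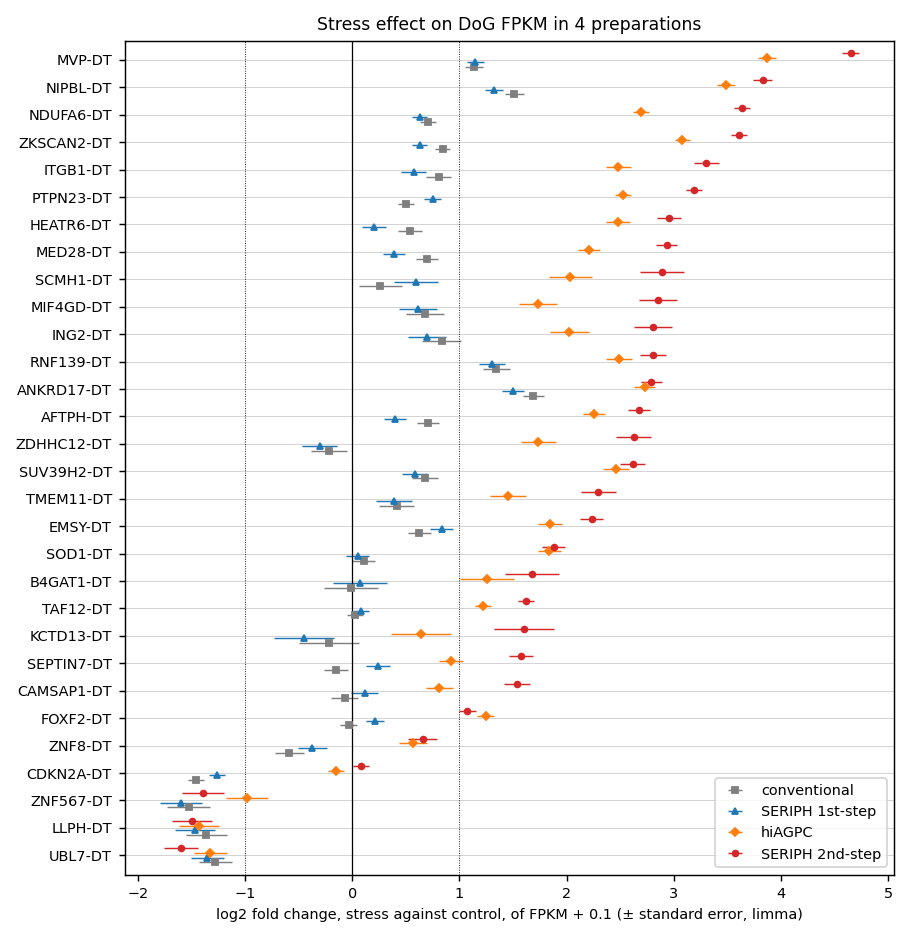
Log2 fold change of stress against control (horizontal axis, FPKM plus 0.1, bars are limma standard errors) for 30 of the 31 genes in the 4 preparations; dotted lines mark a log2 change of 1 in either direction. Points of hiAGPC and of the 2nd-step fraction lie right of those of the aqueous preparations for most genes, and LLPH-DT, UBL7-DT and ZNF567-DT lie left of 0 in all 4.

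The difference between stress effects was itself tested. Under stress only MVP-DT and NIPBL-DT were listed in an aqueous preparation. Detection thus favoured a larger effect in hiAGPC and the 2nd-step fraction, which the p-values do not allow for. Set against conventional RNA, hiAGPC gave a larger stress effect for 26 members and a smaller one for none, where it was larger for 64% and smaller for 0.733% of all DoGs. It was larger in the 2nd-step than in the 1st-step fraction for 27 members and smaller for none, where 72.9% and 4.21% of all DoGs were called. The median log2 difference of the members was 1.28 (all DoGs 1.29) and 2.03 (all DoGs 1.76). Centred on the DoG median, 1 member was higher and 2 lower in the former (3.47% and 17.3% of all DoGs), and 4 higher and 3 lower in the latter (9.27% and 22.4%).

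MVP-DT had the largest difference of the members in both, by log2 values of 2.73 (SE 0.12, adjusted p = 3.88e-09, limma) and 3.50 (SE 0.12, adjusted p = 1.78e-10). ZKSCAN2-DT followed between hiAGPC and conventional RNA with 2.23 (SE 0.10, adjusted p = 4.29e-09), and NDUFA6-DT between the SERIPH fractions with 3.01 (SE 0.10, adjusted p = 1.92e-10). For CDKN2A-DT, chosen after its values were seen, the difference was 1.30 and 1.34 (adjusted p = 2.22e-07 and 1.05e-07), and with centred libraries it was -0.06 and -0.41.

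The preparations were then compared within each condition. In stressed cells the same selection by detection favoured higher values in hiAGPC and the 2nd-step fraction, by an amount that was not tested. The paper defines semi-extractability by hiAGPC against conventional RNA, and scores the 2nd-step against the 1st-step fraction separately, as SERIPH enrichment. In stressed cells hiAGPC exceeded conventional RNA for 24 members and was below it for none, where 68.7% and 0.478% of all DoGs were called. In the 2nd-step against the 1st-step fraction 28 members were higher and none lower, where 79.3% and 2.96% were called. The median log2 difference was 1.51 (all DoGs 1.40) and 2.13 (all DoGs 1.99). With centred libraries 1 member was higher and 2 lower in the former (3.54% and 16% of all DoGs), and 2 higher and 3 lower in the latter (6.72% and 20.4%).

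MVP-DT was again the most different of the members. Under stress it was higher in hiAGPC than in conventional RNA by a log2 value of 2.79 (SE 0.08, adjusted p = 5.68e-11, limma), and in the 2nd-step fraction (3.52 and 3.31 FPKM) than in the 1st-step fraction (0.22 and 0.20 FPKM) by 3.50 (SE 0.08, adjusted p = 2.88e-12). ZKSCAN2-DT was higher in hiAGPC by 2.23 (SE 0.07, adjusted p = 6.68e-11). HEATR6-DT had 0.06 and 0.10 FPKM in the 1st-step and 1.31 and 1.44 in the 2nd-step libraries of stressed cells, a log2 difference of 3.04 (SE 0.11, adjusted p = 4.82e-11).

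LLPH-DT went the other way. In stressed cells it had 0.10 and 0.22 FPKM in the 1st-step and 0.05 and 0.02 in the 2nd-step libraries, a log2 difference of -0.92 (adjusted p = 0.000512, limma), short of the required change of 1. It was the only member with both 2nd-step libraries below both 1st-step libraries under stress, and it was named for this after its values were seen. How many of all DoGs lay so was not counted, but 2.96% of them were called lower.

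In control cells no member was called between hiAGPC and the conventional preparation (limma, 5 members and 25.5% of all DoGs at an unadjusted p below 0.05), where 1.08% of all DoGs were higher and 0% lower. Between the 2nd-step and the 1st-step fraction 3 members were higher and 1 lower, where 10.9% and 3.28% of all DoGs were called. UBL7-DT had 0.16 and 0.23 FPKM in the 1st-step and 0.76 and 0.85 in the 2nd-step libraries, a log2 difference of 1.63 (SE 0.16, adjusted p = 4.56e-06). FOXF2-DT, beside a forkhead transcription factor gene, had 0.13 and 0.11 in the 1st-step and 0.47 and 0.45 in the 2nd-step libraries, a log2 difference of 1.35 (SE 0.08, adjusted p = 1.19e-07). The other member that was higher was ZNF8-DT, with 0.15 and 0.18 against 0.46 and 0.45 FPKM (log2 difference 1.07, adjusted p = 3.78e-05), which fell to 0.99 without control 1st-step replicate 1.

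KCTD13-DT, beside the gene of an adaptor of a cullin ubiquitin ligase, was the member called lower in the control 2nd-step fraction. It had 0.44 and 0.38 FPKM in the 1st-step and 0.09 and 0.17 in the 2nd-step libraries, a log2 difference of -1.17 (SE 0.28, adjusted p = 0.00437, limma). The call was lost when these groups were fitted alone (adjusted p = 0.0558) and without control 2nd-step replicate 1 (log2 difference -0.92, adjusted p = 0.0517).

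The interphase fraction was also set against hiAGPC. In stressed cells only TMEM11-DT was called higher in the 2nd-step fraction, with none lower, where 6.91% and 1.75% of all DoGs were called. TMEM11 is a protein of the mitochondrial inner membrane. TMEM11-DT had 0.38 and 0.35 FPKM in hiAGPC and 0.92 and 0.88 in the 2nd-step fraction, a log2 difference of 1.11 (SE 0.17, adjusted p = 9.83e-05, limma). By adjusted p alone 25 members were higher and 1 lower, where 68.7% and 4.75% of all DoGs were, and the median log2 difference was 0.55 (all DoGs 0.52). With an added value of 1 no member was called, and with centred libraries 0 were higher and 1 was lower (0% and 3.7% of all DoGs). In control cells no member was called (limma, 7 members and 37.1% of all DoGs at an unadjusted p below 0.05), where 0.86% of all DoGs were higher and 1.47% lower.

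The length of the listed regions gives another readout. Under stress 14 members were listed in all 4 hiAGPC and 2nd-step libraries. Their median region was 33.75 kb in hiAGPC and 60 kb in the 2nd-step fraction, and the median ratio of lengths per gene was 1.58, against 1.36 over the 1290 genes listed in all 4. The mean region was longer in the 2nd-step fraction for 12 of the 14 (75.1% of the 1290 genes) and shorter for 2, and in 8 of them each region of the 2nd-step fraction exceeded each of hiAGPC (46.0% of the 1290 genes). The median ratio was 1.85 without replicate 1 and 1.32 without replicate 2, against 1.46 and 1.17 over the 1290 genes. With regions of at least 20 kb it was 1.41 over 9 members, against 1.27 over 859 genes.

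The longest regions were those of TAF12-DT and NIPBL-DT. TAF12-DT measured 370.524 and 372.438 kb in the 2nd-step libraries and 372.438 kb in both of hiAGPC. NIPBL-DT measured 210 and 218.53 kb in hiAGPC, and 208.53 and 500 kb in the 2nd-step fraction, so the 2nd-step replicates differed more than the preparations. In conventional RNA NIPBL-DT was listed over 10 kb in both replicates.

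ZKSCAN2-DT, with 245 and 325 kb in the 2nd-step libraries and 130 kb in both hiAGPC libraries, was longer in the interphase fraction in both replicates. NDUFA6-DT measured 130 and 170 kb, the longer of them running over OGFRP1, against 130 kb in both hiAGPC libraries. CDKN2A-DT had the largest ratio of the 14, 5.70, with 125 and 160 kb against 25 kb in both hiAGPC libraries. Both of its 2nd-step regions ran over CDKN2B-AS1, a lncRNA gene of the same strand, which the hiAGPC regions did not reach, and its FPKM was computed over 160 kb, with that gene included. MVP-DT went the other way, with 60 kb in both 2nd-step and 111.173 kb in both hiAGPC libraries, where the region ran into C16orf54, and with 20 and 10 kb in conventional RNA. Its FPKM region of 156.173 kb was longer than any region listed for it, which was so for no other member. The control regions were short, at 20 kb in both 2nd-step libraries for UBL7-DT and 10 kb for ZNF567-DT and ZNF8-DT.

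**Figure D3:**
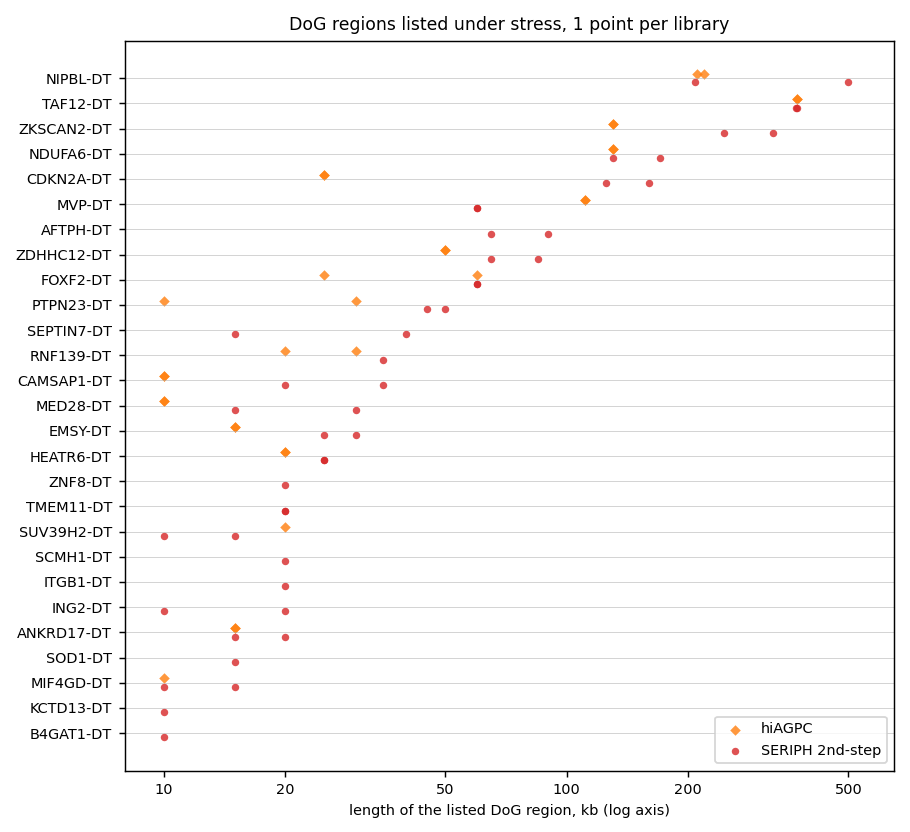
Length of the listed DoG region in stressed cells (horizontal axis, kb, log scale) for 27 genes listed in at least 1 hiAGPC or 2nd-step library; each point is 1 library, with overlapping points drawn darker. CDKN2A-DT and ZKSCAN2-DT have both 2nd-step points right of both hiAGPC points, MVP-DT has them left, and several genes have 2nd-step points only.

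For 9 members the coding partner had a DoG in the table too, on the other side of the pair. In the 2nd-step fraction 8 of these 9 partner DoGs rose with stress and none fell, where 74.6% and 11.7% of all DoGs did. The counts were the same in hiAGPC, where 70.2% and 9.14% of all DoGs did. MVP itself had 0.03 and 0.02 FPKM in control and 2.7 and 2.52 in stressed 2nd-step libraries (log2 change 4.44, adjusted p = 3.36e-13, limma), beside the 4.65 of MVP-DT. NIPBL changed by a log2 value of 2.84 beside the 3.83 of NIPBL-DT, and ZKSCAN2 by 2.65 beside the 3.61 of ZKSCAN2-DT. The difference between partners was not tested.

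In 2 pairs the members and their partners went apart. UBL7 had 0.08 and 0.10 FPKM in control and 1.5 and 1.34 in stressed 2nd-step libraries (log2 change 3.0, adjusted p = 3.57e-10, limma), while UBL7-DT, starting 66 bp away, fell from 0.76 and 0.85 to 0.23 and 0.17. MED28 encodes a subunit of the Mediator complex. Its DoG had 0.84 and 0.68 FPKM in control and 0.45 and 0.74 under stress, which overlapped (log2 change -0.33, adjusted p = 0.134). MED28-DT, starting 56 bp away, had 0.01 FPKM in both control and 0.74 in both stressed 2nd-step libraries. These pairs were singled out after their values were seen.

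**Figure D4:**
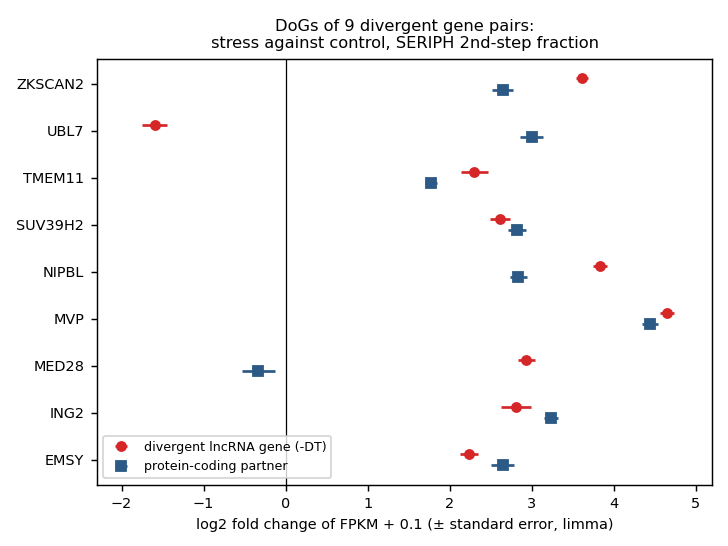
Log2 fold change of stress against control in the SERIPH 2nd-step fraction (horizontal axis, FPKM plus 0.1, bars are limma standard errors) for the DoGs of 9 divergent lncRNA genes and of their protein-coding partners, 1 pair per row. In 7 rows both points lie right of 0, in the UBL7 row the lncRNA point lies at -1.60 and the partner at 3.0, and in the MED28 row the partner lies at -0.33.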

How the data were processed

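Ribosomal RNA-depleted, strand-marking total RNA libraries of HEK293 cells were sequenced by the authors, who trimmed reads with fastp 0.25.0, removed ribosomal DNA matches with Bowtie2 2.5.4, aligned uniquely mapping reads to GRCh38 with STAR 2.7.11b and GENCODE 49, and detected DoGs with ARTDeco. The deposited DoG table holds FPKM values computed by the authors in 16 libraries. BED files of the listed regions per library accompany it, and DESeq2 is among the tools named in the submitters' processing notes. No read counts were used, so depth behind each value is unknown here; at 2 decimals, low values carry 1 significant digit.

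Groups were taken from the sample labels. Values were fitted as log2(FPKM + 0.1) with limma 3.58.1 (R 4.3.3, trended prior, no filter, 8 groups of 2 libraries), on all 3139 DoGs, which were matched to GENCODE 44 by gene ID (8 IDs without a match). A call required an adjusted p below 0.05 and a log2 difference of at least 1. On simulated data for the 12 comparisons, 199 to 200 of 200 DoGs changed by a log2 value of 2 were recovered among 3139, with at most 1 false call. Replicate libraries differed from each other, and none was a copy. Regions were compared by length, a value with no test. Members called by the largest and smallest log2 values in each comparison (3 each way for stress, 2 each way otherwise), and the 4 with the longest 2nd-step regions per condition, were named; others named were chosen after their values were seen. The members, lists and tests were chosen with earlier results of these data known. Alternatives were added values of 0.01 and 1, a mean of at least 0.1 FPKM, centring on the library median, the replicate block, the compared groups alone, leaving out each library, and for regions either replicate and a minimum of 20 kb. HCCS-DT was set aside by the rule. Of the 31 members, 1 enters the counts and is not reported by name or drawn here.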

Additional observations from a re-analysis of the deposited data

Results flagged for a closer look

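The stress effect differed between preparations for most of these DoGs, by the limma test of the difference itself. Detection favoured larger effects in hiAGPC and the 2nd-step fraction, where most members were listed, and the test does not allow for this. It was called for 26 members between hiAGPC and the conventional preparation and for 27 between the 2nd-step and the 1st-step fraction, all of them larger in hiAGPC or the 2nd-step fraction, where 64% and 72.9% of all DoGs were called larger. Centred on the median DoG of each library, 3 and 7 members were called, counting both directions, and these included smaller as well as larger effects. Of all DoGs, 3.47% were then called larger and 17.3% smaller between hiAGPC and the conventional preparation. Between the SERIPH fractions the shares were 9.27% and 22.4%.

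MVP-DT differed by log2 values of 2.73 and 3.50, ZKSCAN2-DT by 2.23 between hiAGPC and the conventional preparation, and NDUFA6-DT by 3.01 between the SERIPH fractions. CDKN2A-DT differed by 1.30 and 1.34, since it fell with stress in the aqueous preparations and was not called in the others.

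In 3 further members, singled out after their values were seen, stressed libraries lay on opposite sides of their control libraries in different preparations. How many of all DoGs did so was not counted. None of the falls was called. In conventional RNA the log2 change was -0.585 for ZNF8-DT (adjusted p = 0.00162, limma) and -0.22 for ZDHHC12-DT (adjusted p = 0.241). In the 1st-step fraction it was -0.45 for KCTD13-DT (adjusted p = 0.156). The rise of ZNF8-DT was not called either. ZNF8-DT had 0.25 and 0.17 FPKM in control and 0.11 and 0.10 under stress in conventional RNA, but 0.46 and 0.45 in control and 0.77 and 0.78 under stress in the 2nd-step fraction, and its stress effect differed by log2 values of 1.15 (hiAGPC minus conventional) and 1.03 (2nd-step minus 1st-step). The first of these was 0.96 without control conventional replicate 1 and 0.99 without control hiAGPC replicate 2, and the other 0.95 without control 1st-step replicate 2 and 0.92 without stress 1st-step replicate 2, all short of the required 1, and with libraries centred on the DoG median they were -0.21 and -0.72. ZDHHC12-DT, beside a palmitoyltransferase gene, had 0.38 and 0.35 in control and 0.28 and 0.32 under stress in conventional RNA, but 0.33 and 0.27 in control and 1.27 and 1.19 under stress in hiAGPC, a difference in stress effect of 1.96. These values include any reads over TBC1D13, which lies in the 85 kb region on the same strand. KCTD13-DT had 0.44 and 0.38 in control and 0.32 and 0.23 under stress in the 1st-step fraction, but 0.09 and 0.17 in control and 0.85 and 0.40 under stress in the 2nd-step fraction, a difference of 2.06.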

How the results depend on the processing

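With an added value of 1 in place of 0.1, no member was called between stress and control in the conventional and 1st-step preparations, or between the SERIPH fractions in control cells and between the 2nd-step fraction and hiAGPC under stress (0 in each). Of all DoGs, at most 0.956% were called in any 1 direction in these comparisons. The other counts fell to 2 (stress, hiAGPC), 8 (stress, 2nd-step), 1 (hiAGPC against conventional, stress), 7 (2nd-step against 1st-step, stress), and 1 and 7 for the differences in stress effect. In the same order, 10.8%, 25.8%, 4.59%, 18.3%, 4.21% and 16.3% of all DoGs were called higher, and at most 1.34% lower. With 0.01, 22 and 18 were called for stress in conventional and 1st-step RNA, 10 between the SERIPH fractions in control cells and 2 between the 2nd-step fraction and hiAGPC under stress. In the same order, 49%, 47.7%, 25.5% and 12.8% of all DoGs were called higher, and 15.2%, 15.7%, 6.15% and 2.74% lower. The changes in count with both added values follow from how the added value scales the log2 change of low FPKM. Centring each library on its DoG median, with the directions and the shares of all DoGs given above, gave 10 (stress, hiAGPC), 5 (stress, 1st-step), 11 (stress, 2nd-step), 3 (hiAGPC against conventional, stress), 5 (2nd-step against 1st-step, stress), and 3 and 7 for the differences in stress effect. It reversed TAF12-DT (-0.70 in hiAGPC, -0.63 in the 2nd-step fraction), CDKN2A-DT (differences in stress effect of -0.061 and -0.41) and ZNF8-DT (-0.21 and -0.72); the shift it removes is the median of all DoGs given with each comparison.

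Leaving out 1 library at a time gave 1 to 2 members between the 2nd-step fraction and hiAGPC under stress, 2 of them without either stressed 2nd-step replicate, and 3 to 5 between the SERIPH fractions in control cells. The other counts stayed within 1.5 times. Of 50 results for named members, 6 of 240 such comparisons lost the call, for KCTD13-DT and ZNF8-DT as given above. The filter on the mean FPKM and the compared groups alone changed no count beyond 1.5 times. The labels do not say that a replicate number marks a shared culture, although by protocol both SERIPH fractions come from 1 lysate and the extractions were run in parallel. Deviations of same-numbered libraries of 1 condition correlated between -0.07 and 0.06 in 12 pairs, which shows no shared deviation, and the libraries were fitted as unpaired. The replicate block gave 8, 25, 8 and 29 members for stress in conventional, hiAGPC, 1st-step and 2nd-step RNA, as without it, and neither it nor a block within each condition changed a call of a named member.

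A minimum of 20 kb left 0 members listed in both replicates of control conventional, control hiAGPC, stress conventional and stress 1st-step RNA, and 1 in the control 2nd-step fraction. Listing in either replicate gave 2 in control hiAGPC. With 2 libraries a group and FPKM alone, small differences of low DoGs could not be resolved.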

Other observations

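A further 10 divergent lncRNA genes had a listed DoG region in at least 1 library and no value in the FPKM table. All 10 were listed in stress libraries and in no control library. Of the 3135 DoG genes with a value, 74.1% were listed in no control library, and the share among all listed genes without a value was not counted. DNAJB5-DT was listed in 3 libraries, over 45 to 85 kb. GOSR2-DT, MARCHF10-DT and NQO1-DT were listed in both stressed hiAGPC libraries, over 10 kb, 45 to 55 kb and 45 kb. ODC1-DT was listed over 15 kb in 1 hiAGPC library and over 70 kb in 1 library of the 2nd-step fraction. MICB-DT was the only one listed in aqueous preparations alone, in 1 conventional and 1 1st-step library, over 25 and 30 kb. KLHL7-DT, SLC2A1-DT, YPEL3-DT and ZCCHC14-DT were listed in 1 library each, over 85, 105, 50 and 35 kb. Their levels were not analysed here.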
